A study of Mus musculus with 8 samples.

Results

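Spliced transcripts that an assembler ties to no annotated gene were gathered into loci, to describe where they lie and how much RNA they gave in early meiotic cells of Bend2 wild-type (WT) and knockout (KO) mice. The loci were chosen by assembly and by TPM (a transcript's share of the library after correction for its length). In each library, transcripts with 2 or more exons and a TPM of 1 or more were taken if no transcript of their assembled gene carried a reference gene. Spans that overlapped on one strand were merged across libraries, which gave 31003 loci, and the 13194 found in 2 or more of the 8 libraries are the loci described. At the edge of the TPM rule, 4686 transcripts had a TPM from 1 to under 1.1 and 4217 had one from 0.9 to under 1. At the edge of the library rule, 5140 loci were found in exactly 2 libraries and 17809 in 1.

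The libraries came from leptotene and zygotene spermatocytes sorted by flow cytometry from C57BL/6 mice of 2 months. Leptotene and zygotene are the opening stages of meiotic prophase, when chromosome axes form and homologous chromosomes begin to pair. There were 4 groups of 2 libraries: Bend2 WT leptotene, Bend2 KO leptotene, Bend2 WT zygotene and Bend2 KO zygotene. The labels used here neither describe the KO allele nor tie a library to an animal, and the p-values therefore reflect library-to-library spread, technical or not. The ratio of coverage to FPKM put each library between 6.82 and 9.45 aligned gigabases, with no read counts, so depth per locus is unknown. Values are scaled TPM, and a locus listed at 0 had no multi-exon transcript assembled there, so RNA too scarce to assemble cannot be told from none. No gene with a value carries the symbol Bend2. The X-linked Gm15262, which no table used here pairs with Bend2 but which takes the place of BEND2 among its human neighbours, was at 15.6 to 39.1 in WT libraries and 22.4 to 40.4 in KO libraries, so its whole level does not check the labels. All 14 leptotene and zygotene markers had a value above 0 in every library.

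The name "without an annotated gene" did not hold for most loci. Against GENCODE M21 (GRCm38, the build of the files), 10889 of 13194 loci (82.5%) overlapped an annotated gene on their own strand. Of these, 8843 shared at least 1 exact intron with that gene, 744 overlapped its exons without a shared intron and 1302 lay in its introns. They are called loci on genes, and the 2305 others (17.5%) loci off genes. Off genes, 903 loci were intergenic, 528 overlapped exons of an opposite-strand gene, and 478 lay across an opposite-strand gene without touching its exons. A further 246 were divergent, with a start within 2 kb of the start of an opposite-strand gene, and 150 began within 5 kb downstream of a same-strand gene. The RefSeq genes of the same build covered 778 loci off genes on their strand, of which 680 overlapped long noncoding genes alone, 95 protein-coding genes alone and 3 both. The other 441 loci that met a RefSeq gene could not be compared by strand, and 1086 met none.

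Long noncoding RNAs are long transcripts that are spliced and capped much like messenger RNA but encode no known protein. The testis expresses more of them than most tissues, above all in meiotic and postmeiotic germ cells. Many start beside a gene on the opposite strand, at a promoter that fires both ways. Pachytene piRNA precursors, the source of the small RNAs that PIWI proteins bind in later spermatocytes, are long transcripts that often come from such divergent promoters, and the transcription factor MYBL1 (A-MYB) drives many of them.

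Loci off genes were short and simple. Their median span was 4652 bases, against 11453 for loci on genes, and the highest transcript of a locus had a median spliced length of 394 bases against 591. That transcript had just 2 exons at 75.4% of loci off genes. The annotated long noncoding genes that reached a TPM of 1 in 2 libraries (2590 genes) had a median span of 7208 bases, and their longest annotated transcripts a median of 3 exons and 1346 bases. The median level of loci off genes, as a mean of scaled TPM over the 8 libraries, was 0.792, against 1.25 for those annotated long noncoding genes and 10.5 for protein-coding genes. At 1630 loci off genes (70.7%) at least 1 exact intron recurred in 2 or more libraries. Only 27 loci off genes were found in all 8 libraries and 1268 in exactly 2, against 555 and 3872 on genes.

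Start regions are shown for 5 loci off genes that RefSeq names, because values given below turn on these loci and an assembled transcript began near the RefSeq start of each. The largest distance between these starts was 39 bases. The first 2 fell in KO and hold one of the 6-base MYB words TAACTG or CAACTG or TAACGG or CAACGG (either strand, in capitals). The third, Gm52429, was among the highest loci off genes and holds 2 words. The last 2 fell in KO and hold none. Each run of 300 bases is RefSeq sequence of GRCm38.p6, 5′ to 3′ on the strand of the gene, 250 bases before the start and 50 after.
4931430N09Rik, plus strand, chr6:118879908-118880207: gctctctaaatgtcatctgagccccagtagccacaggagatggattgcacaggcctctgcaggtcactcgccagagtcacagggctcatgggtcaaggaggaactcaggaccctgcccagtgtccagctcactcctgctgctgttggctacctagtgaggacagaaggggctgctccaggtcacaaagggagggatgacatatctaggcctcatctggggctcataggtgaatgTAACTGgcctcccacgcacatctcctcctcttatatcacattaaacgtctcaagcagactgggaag
4930517G24Rik, plus strand, chr8:107205080-107205379: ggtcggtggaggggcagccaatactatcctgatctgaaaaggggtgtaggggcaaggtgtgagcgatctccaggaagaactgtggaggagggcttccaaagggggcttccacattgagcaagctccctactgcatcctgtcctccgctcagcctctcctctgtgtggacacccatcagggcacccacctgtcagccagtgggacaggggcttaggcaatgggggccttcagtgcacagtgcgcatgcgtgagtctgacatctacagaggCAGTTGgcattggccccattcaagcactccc
Gm52429, plus strand, chrX:101695586-101695885: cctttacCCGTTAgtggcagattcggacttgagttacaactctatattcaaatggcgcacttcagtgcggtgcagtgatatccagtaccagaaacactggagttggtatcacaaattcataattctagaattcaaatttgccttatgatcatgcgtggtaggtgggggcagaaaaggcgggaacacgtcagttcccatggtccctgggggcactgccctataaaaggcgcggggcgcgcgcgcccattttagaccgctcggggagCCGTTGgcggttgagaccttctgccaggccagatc
Gm17695, plus strand, chr5:27951786-27952085: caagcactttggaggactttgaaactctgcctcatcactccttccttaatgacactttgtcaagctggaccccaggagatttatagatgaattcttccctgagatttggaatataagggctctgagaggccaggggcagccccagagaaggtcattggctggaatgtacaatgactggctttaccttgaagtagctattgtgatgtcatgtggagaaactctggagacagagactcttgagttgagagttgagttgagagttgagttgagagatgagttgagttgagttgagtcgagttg
Gm20153, minus strand, chrX:150177270-150177569: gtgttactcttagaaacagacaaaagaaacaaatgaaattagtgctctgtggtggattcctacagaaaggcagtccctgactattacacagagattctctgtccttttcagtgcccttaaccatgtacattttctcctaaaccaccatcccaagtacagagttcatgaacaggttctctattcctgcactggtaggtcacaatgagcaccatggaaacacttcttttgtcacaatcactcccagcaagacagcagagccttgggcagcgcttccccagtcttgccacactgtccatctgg

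A word was present in 28.3% of all 32841 RefSeq windows of this length. Of the 286 loci off genes with a transcript start within 100 bases of their RefSeq start, 100 had one (35%). Among the 24 such loci that fell in KO over both stages, 9 had one. The words are letters in a window, and no binding was measured.

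Fewer loci off genes were found in KO libraries than in WT libraries at both stages. At a TPM of 1 or more, WT libraries held 1253 and 1067 of them at leptotene and 1282 and 1033 at zygotene. KO libraries held 465 and 484 at leptotene and 528 and 521 at zygotene. The genotypes did not overlap at either stage. The mean was 1159 ± 127 in WT and 500 ± 30 in KO (SD, n = 4 each), a ratio of 2.32. A two-sided exact permutation test of 4 KO against 4 WT libraries gave p = 0.0286, which is the lower limit with 70 arrangements, and 0.0367 after Benjamini-Hochberg adjustment over 18 measures per library. Both stages of a genotype enter this test as independent libraries, and the labels do not show that they are. The members enter through these same TPM values, and a locus seen in both WT libraries alone passes the 2-library rule. The p-value of this count thus rests on the values that chose the loci and gives no separate support. Before the 2-library rule, the counts were 2571, 2219, 2746 and 2054 in WT and between 897 and 1090 in KO (ratio 2.38, exact permutation p = 0.0286, adjusted 0.0367). The same TPM cut made these counts, so they too are given as a description.

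Every position class off genes showed the same order of the genotypes. Antisense loci that touched no exon numbered 216 to 267 in WT libraries and 71 to 91 in KO libraries (ratio 3.11). Intergenic loci numbered 391 to 501 and 178 to 190 (ratio 2.48), antisense loci over exons 239 to 307 and 120 to 148 (ratio 2.01), divergent loci 113 to 137 and 60 to 71 (ratio 1.93), and downstream loci 59 to 73 and 32 to 45 (ratio 1.69). Each of these gave an exact permutation p of 0.0286 and an adjusted p of 0.0367, and the classes were not tested against each other. These counts are of loci kept by the TPM and 2-library rules. Of loci off genes, 1044 met the rules through WT libraries alone and 146 through KO libraries alone. The p-values of the classes thus rest on the values that chose the loci and give no separate support. Loci with a RefSeq gene numbered 407 to 473 in WT and 160 to 180 in KO.

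Loci on genes did not show this order, with 4948 to 5249 found in WT libraries and 4768 to 5159 in KO libraries (exact permutation p = 0.629, adjusted p = 0.629). The share of the found loci that lay off genes was therefore 16.9% to 20.6% in WT and 8.33% to 9.85% in KO (exact permutation p = 0.0286, adjusted p = 0.0367). Annotated long noncoding genes, which no rule here chose, moved the same way by less. At a TPM of 1 or more there were 1737 to 1974 in WT libraries and 1020 to 1367 in KO libraries (ratio 1.59, exact permutation p = 0.0286, adjusted p = 0.0367). Per 100 such genes, 52.3 to 73.8 loci off genes were found in WT and 38.6 to 48.6 in KO (exact permutation p = 0.0286, adjusted p = 0.0367). The share off genes and this ratio count loci chosen by the same rules, so their p-values give no separate support. Protein-coding genes numbered 14833 to 15511 in WT and 14105 to 14875 in KO (ratio 1.05, exact permutation p = 0.0571, adjusted p = 0.0686).

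**Figure D1:**
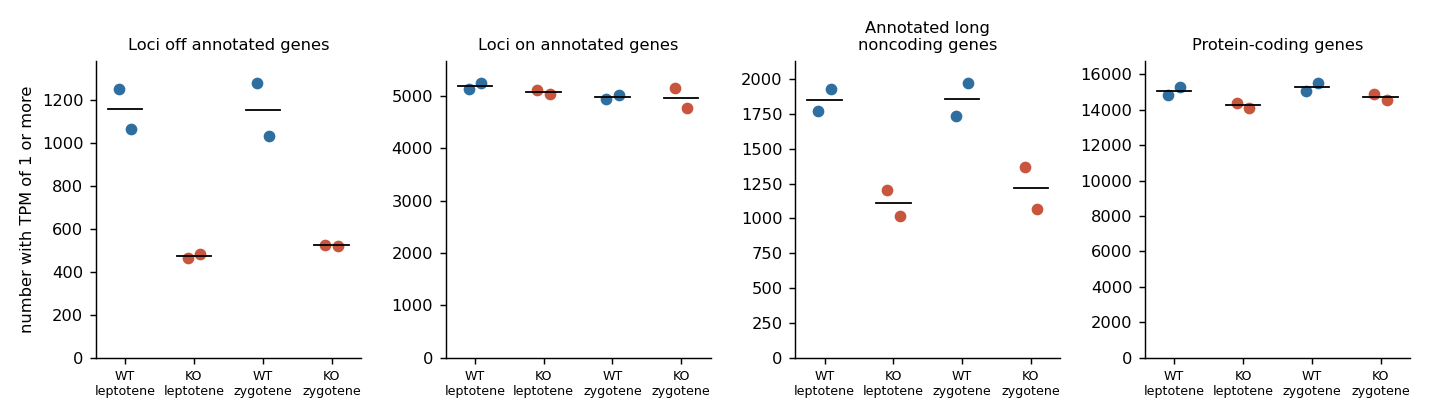
Number of loci or genes with a TPM of 1 or more (vertical axis, from 0) in each library (points, WT blue, KO red) of the 4 groups, with group means as lines. For loci off genes the KO libraries lie between 465 and 528 and the WT libraries between 1033 and 1282, while for loci on genes the genotypes overlap.

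Other cell types moved with this difference. All 12 pachytene spermatocyte markers had a value, and their summed scaled TPM was 1045 to 1391 in WT libraries and 250 to 513 in KO libraries. The 14 round spermatid markers summed to 5100 to 10136 in WT and 722 to 1684 in KO, with Catsper1 listed at 0 in 1 library. The 10 macrophage markers summed to 145 to 597 in WT and 33.2 to 74.3 in KO, with C1qc, Cd14 and Cd68 listed at 0 in at least 1 library. The 9 peritubular and stromal markers summed to 356 to 1246 in WT and 97 to 638 in KO, which overlapped, and the Sertoli, Leydig and erythroid sums overlapped too. The 12 spermatogonial markers went the other way, 222 to 314 in WT and 525 to 866 in KO, while the 14 leptotene and zygotene markers overlapped (564 to 1190 and 721 to 908). In values of whole genes over both stages, limma called 9 of the 12 pachytene, 12 of the 14 round spermatid, 5 of the 10 macrophage and 4 of the 9 peritubular and stromal markers (Dcn, Col1a2, Mgp and Tagln) lower and 7 of the 12 spermatogonial markers higher, where 6.77% of all features were called. Stra8, among those 7, is also on the leptotene and zygotene list, where it was the only marker called (higher, limma adjusted p = 0.0385). The part of these cell types in the count of loci was not tested, and in sorted bulk samples fewer cells of a type and less RNA per cell cannot be told apart.

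The libraries of a group also differed from each other in how much of their TPM lay in single-exon transcripts without a reference gene. This share was 22.3% to 24% in 1 library of each group and 9.87% to 14.4% in the other. The high share was in WT leptotene 2, WT zygotene 2, KO leptotene 1 and KO zygotene 1. These same 4 libraries had the higher erythroid sum of their group, 1036 to 2792 against 7.72 to 251 in the other 4. Among the 4 libraries with a high share, loci off genes numbered 1067 and 1033 in WT and 465 and 528 in KO, and among the other 4 they numbered 1253 and 1282 in WT and 484 and 521 in KO. Each kind held 2 libraries of a genotype, and the part of this share in the counts was not tested.

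Loci off genes held little RNA, and in some libraries 1 locus held much of it. The locus chr10:72249935-72297348 (minus strand, 2 exons with 214 spliced bases) had scaled TPM of 10563 and 4352 in WT and 3554 and 6658 in KO at leptotene, and of 0 and 1187 in WT and 0 and 3063 in KO at zygotene. It was high in all 4 leptotene libraries and listed at 0 in 1 library of each zygotene group, so no genotype stood apart. All loci off genes together held 0.541% to 1.47% of TPM in WT and 0.191% to 0.881% in KO (exact permutation p = 0.143, adjusted p = 0.151). Without that locus the share was 0.411% to 0.583% in WT and 0.188% to 0.213% in KO. This is given as a description, since the same TPM chose the loci, 1044 of them through WT libraries alone and 146 through KO libraries alone, and the locus was left out after its values were seen.

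Single loci were compared on log2(scaled TPM + 1) with limma over all 34435 loci and annotated genes at once. Over both stages, 3 loci off genes rose and 56 fell in KO, which is 59 of 2305. Of all features 4.56% were called, 1.32% higher and 3.23% lower, and of 2011 annotated long noncoding genes 2 rose and 77 fell. In these values annotated genes lack the multi-exon transcripts given to loci. With whole genes and totals on the strand, 6.77% of all features were called. Of the 59 loci, 48 had been found in libraries of 1 genotype only and so had to differ, and of the 11 found in both genotypes 10 fell. The count rests on all 8 libraries: it was 0 without WT zygotene 1 or without WT zygotene 2, 1 without either WT leptotene library, 5 and 3 without KO leptotene 1 and 2, and 17 and 5 without KO zygotene 1 and 2. With the replicate number as a block, 8 loci off genes were called, all lower.

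The median log2 fold change of loci off genes was -0.64 over both stages, -0.65 at leptotene and -0.60 at zygotene, where that of all features was -0.07, -0.06 and -0.04. For loci on genes it was 0.02 over both stages, and for annotated long noncoding genes -0.31. These medians describe sets whose members passed a TPM rule, and they depend on the pseudocount where one side is listed at 0: off genes, over both stages, the median was -1.81 with a pseudocount of 0.1 and -0.20 with one of 5. Of loci off genes, 1044 were found in WT libraries alone, 146 in KO libraries alone and 1115 in both.

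**Figure D2:**
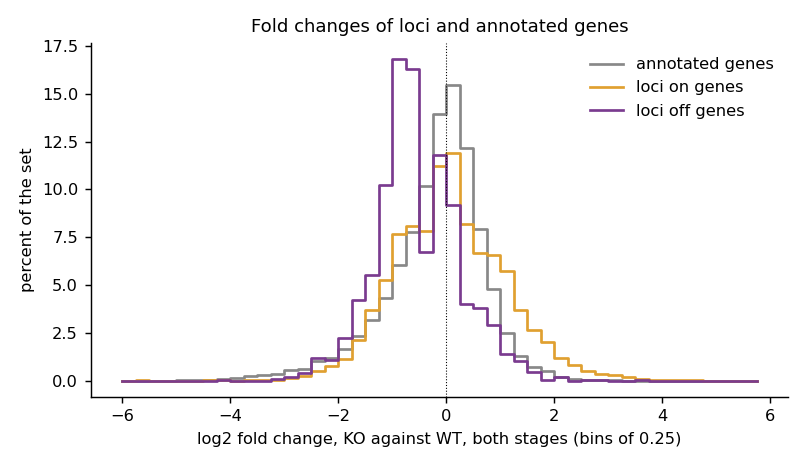
Share of each set (vertical axis, percent) by log2 fold change of KO against WT over both stages (horizontal axis, bins of 0.25) for annotated genes, loci on genes and loci off genes. Loci off genes are shifted to negative values, with a median of -0.64 against 0.02 for loci on genes.

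At a single stage, only 1 locus off genes was called, and it was the same one at leptotene and at zygotene. It spans chr6:43000087-43008819 (minus strand, intergenic, 2 exons, 548 spliced bases), 18.9 kb from the nearest annotated gene, Gm17472. Its scaled TPM was 23.3 and 13.1 in WT leptotene and 15.3 and 14.8 in WT zygotene, and it was listed at 0 in all 4 KO libraries. The adjusted p from limma was 0.0359 at leptotene, 0.0497 at zygotene and 0.00604 over both stages, with 0.511% of all features called at leptotene and 0.227% at zygotene. The locus was found in WT libraries alone, so its values had to differ and these p-values are no support. When every transcript on its exons and strand was added, single-exon ones included, the KO libraries had 1.88, 2.68, 1.73 and 5.29 and the WT libraries 14.8 to 23.3. The groups still did not overlap, and that total was lower in KO over both stages (log2 fold change -2.28 ± 0.36, adjusted p = 0.0123) but missed the threshold at leptotene (0.061) and at zygotene (0.147).

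Most of the other named falls lay on RefSeq long noncoding genes. The loci of Gm51771, 4930517G24Rik, Gm39874 and Gm32007 and the chr13 locus below were found in WT libraries alone. Their locus values therefore had to differ, and their p-values are no support. Gm51771 (chr10:70104596-70110173, minus strand) lies antisense in Ccdc6, a gene fused to the RET kinase in thyroid cancer, without touching its exons. Its locus had 7.46 and 8.51 in WT leptotene, 7.20 and 6.84 in WT zygotene and 0 in all 4 KO libraries (limma adjusted p = 0.0135), and no other transcript on its strand filled the gap. Gm20153 (chrX:150157435-150177280, minus strand), which RefSeq types as protein-coding, had 12, 15.9, 8.69 and 7.59 in the WT libraries, and among the KO libraries only 1 of zygotene had a value, 1.92 (log2 fold change -3.15 ± 0.45, adjusted p = 0.0188). In that KO library the total on the strand came to 6.84, close to the 7.59 of the lower WT zygotene library. 4930517G24Rik (chr8:107205341-107246314, plus strand) had 3.46, 8.68, 8.21 and 8.43 in WT and one KO value above 0, 0.393 (log2 fold change -2.85 ± 0.44, adjusted p = 0.0233).

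4931430N09Rik (chr6:118880154-118889022, plus strand) runs antisense within Cacna1c, a calcium channel gene. It had 8.49 and 9.21 in WT and 0 and 2.68 in KO at leptotene, and 4.97 and 8.67 in WT and 0 in both KO libraries at zygotene (log2 fold change -2.64 ± 0.52, adjusted p = 0.0431). The groups did not overlap, as the choice of named loci required, and the total on the strand no longer passed (adjusted p = 0.0728). Gm17695 (chr5:27952033-27977319, plus strand, 6 exons) had 15.0, 7.04, 8.62 and 6.90 in WT and 2.69, 1.11, 0 and 0 in KO (log2 fold change -2.57 ± 0.41, adjusted p = 0.0245). Its total on the strand reached 10.8 and 8.46 in 2 KO libraries, so that total overlapped between the genotypes (adjusted p = 0.332). The same held for Gm38868, Gm17434 (typed as protein-coding) and Gm39874, whose totals gave adjusted p of 0.342, 0.153 and 0.293.

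Gm32007 (chr6:32598150-32656965, minus strand, 5 exons) had 7.30, 5.63, 4.77 and 3.36 in WT and 0 in KO (adjusted p = 0.0225). A pair of falls had no RefSeq gene on their strand. The locus chr13:58071190-58112476 (plus strand) crosses exons of Klhl3, an adaptor of a ubiquitin ligase, on the opposite strand and had 8.49, 5.91, 4.63 and 5.02 in WT and 0 in KO (adjusted p = 0.0183). The locus chr8:84583214-84587622 (minus strand), opposite exons of the calcium channel gene Cacna1a, had 5.46, 3.53, 5.94 and 14.9 in WT and 0, 0, 0 and 1.31 in KO (log2 fold change -2.61 ± 0.51, adjusted p = 0.0405). The files were assembled with no strand option in their headers, so the strand of these loci rests on their splice sites, and reads on overlapped exons cannot be assigned to one strand. Over all 56 falls off genes, the total on the strand had the same sign at 55 and was itself called at 31.

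Off genes, 3 loci rose. Gm33746 (chr8:69882036-69888272, plus strand, opposite Cilp2 and Yjefn3) had 6.27, 9.66, 6.72 and 7.14 in KO and 0, 0, 1.7 and 0 in WT, but its total on the strand was 10.6 and 12.9 in WT leptotene. The loci chrX:74775950-74776965 (minus strand) and chr5:137708306-137720209 (plus strand) had 2.33 to 3.89 and 1.91 to 3.03 in KO and were listed at 0 in WT. Both of these were found in KO libraries alone, so they had to differ. None of the 3 was called by its total on the strand.

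**Figure D3:**
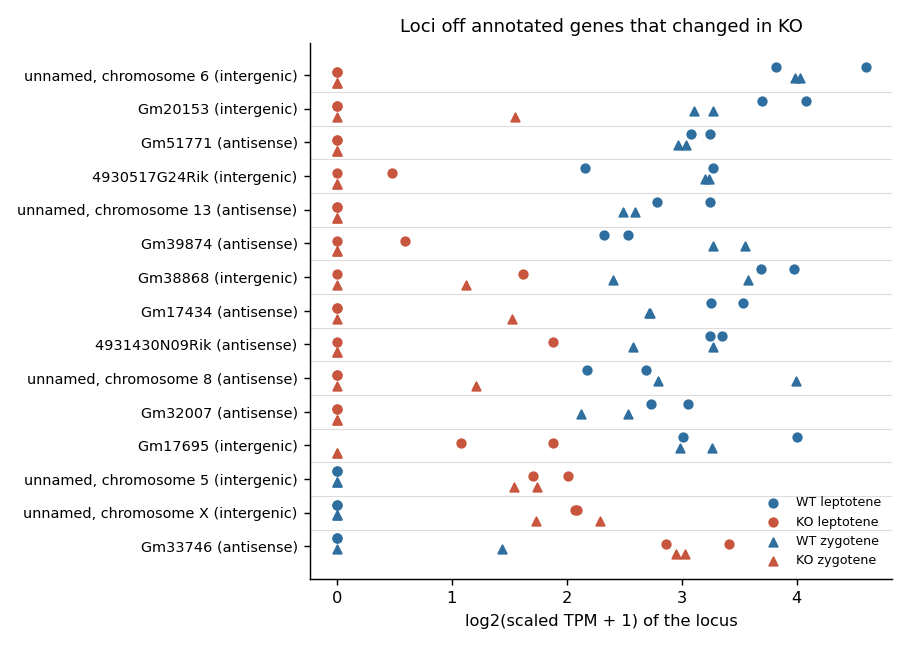
Level of the named loci off genes that changed in KO over both stages (horizontal axis, log2 of scaled TPM + 1), one row per locus, with circles for leptotene and triangles for zygotene libraries. In the upper 12 rows the KO libraries (red), many of them at 0, lie below the WT libraries (blue), and in the lower 3 rows the order is turned. The loci were picked for libraries that do not overlap.

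On genes, most rises were not called when all RNA on the strand was counted. Over both stages, 170 loci on genes rose and 112 fell, where 1.32% of all features were called higher and 3.23% lower. Of these calls, 205 were at loci found in libraries of 1 genotype only, which had to differ, and 77 at loci found in both, of which 33 rose and 44 fell. A reference-linked gene held exons there in at least 1 library in which the locus was listed at 0 for 5823 of 10889 loci on genes, and for 155 of 2305 off genes. When every transcript on the exons and strand of a locus was counted, reference-linked ones included, 10 of the 170 rises and 71 of the 112 falls were still called in the same direction. The median log2 fold change of that total was -0.35 over the 170 rises and -1.91 over the 112 falls. In that analysis 591 loci on genes fell and 73 rose, where 6.77% of all features were called.

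Chd5 and Taf15 were among the largest rises on genes. The loci at Chd5, Taf15 and Pmfbp1 were found in KO libraries alone, so their locus values had to differ. At Chd5, a chromatin remodeler of the testis and brain (chr4:152338538-152389970, plus strand), the locus had 33.6 and 21.9 in KO leptotene and 16.3 in each KO zygotene library and was listed at 0 in all 4 WT libraries (adjusted p = 0.00383). The total on its strand was 30.5 to 40.4 in WT and 16.3 to 39.6 in KO, so the genotypes overlapped (log2 fold change -0.27 ± 0.28, adjusted p = 0.613). At Taf15, which encodes an RNA-binding protein (chr11:83433389-83506846, plus strand), the locus had 11.8, 11.1, 34.2 and 31.7 in KO and 0 in WT, while the total was 36.5 to 104 in WT and 31.7 to 51.6 in KO. Samd4, Tnxb, Utp14a, Trim11, Nipbl, Cfap65 and Dnah17 were also called higher by the locus and not by the total. These loci too were listed at 0 in all 4 WT libraries and found in KO libraries alone, so their locus values had to differ. At Pmfbp1, which encodes a protein of the sperm head-tail junction, the locus was called higher (9.11 to 27.6 in KO and 0 in WT) while the total was called lower (-1.47 ± 0.34, adjusted p = 0.0409). Erlin1 (chr19:44034777-44041171, minus strand) went the other way, with 0 in both KO leptotene libraries for the locus and 16.1 and 15.7 for the total, against 19 and 14.9 in WT leptotene.

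Dnhd1, which encodes a dynein-related protein of the sperm tail (chr7:105678189-105721717, plus strand), rose by both measures. The locus had 36.9 and 19.7 in KO leptotene and 24.3 and 21.2 in KO zygotene and was listed at 0 in WT (adjusted p = 0.00371). It was found in KO libraries alone, so the locus value had to differ. The total was 14.8 and 13.0 in WT and 37.8 and 25.8 in KO at leptotene, and 13.0 and 13.6 in WT and 37.1 and 22.8 in KO at zygotene. Every KO library lay above every WT library, with a log2 fold change of the total of 1.12 ± 0.22 (adjusted p = 0.0245).

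**Figure D4:**
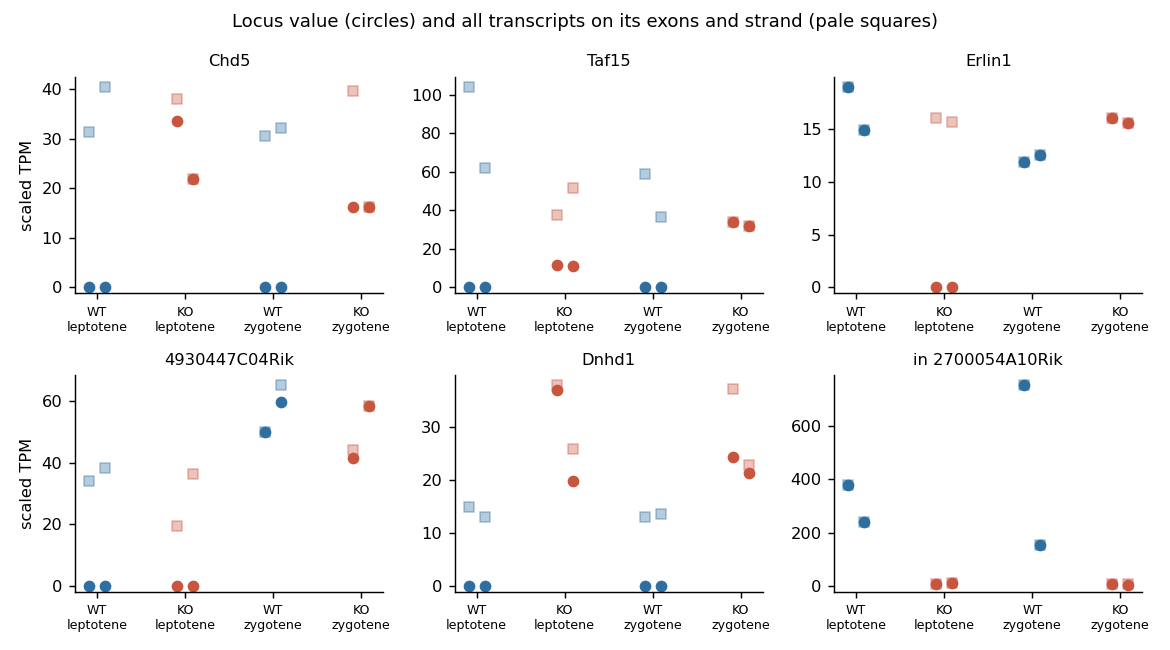
Scaled TPM (vertical axis) of 6 loci on genes in each library of the 4 groups, as the locus value (circles) and as all transcripts on its exons and strand (pale squares). At Chd5, Taf15, Erlin1 and 4930447C04Rik the circles are at 0 in 1 or 2 groups where the squares are not, and at the locus in 2700054A10Rik both drop in KO.

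The falls on genes included repeated X-linked and chromosome 17 loci. The locus chr17:13584663-13655393 (minus strand, up to 15 exons, within introns of 2700054A10Rik) had 379 and 241 in WT and 6.13 and 10.5 in KO at leptotene, and 754 and 154 in WT and 5.10 and 3.48 in KO at zygotene. The highest KO library had 10.5 and the lowest WT library 154 (log2 fold change -5.55 ± 0.50, adjusted p = 0.00627). Named falls were picked for libraries that do not overlap. The locus was called at leptotene (adjusted p = 0.0488) and zygotene (0.043) as well. Its total on the strand equalled the locus value in every library but KO zygotene 2, where it was 5.85 against 3.48. That total (-5.37 ± 0.48, adjusted p = 0.00205) is therefore no separate measure. Gm29825 (chr9:114118069-114192632, plus strand, 27 exons), an annotated gene with a shared intron, had 40.0, 46.7, 38.2 and 35.3 in WT and 4.81, 9.77, 5.10 and 3.77 in KO (log2 fold change -2.64 ± 0.25, adjusted p = 0.0075).

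A run of 4 X-linked loci over the Astx genes, a multicopy family of the testis, was low in every KO library. The longest, chrX:125319796-126032364 (plus strand, 713 kb), had 80.6 and 37.0 in WT and 0.343 and 0 in KO at leptotene, and 80.1 and 39.8 in WT and 0 in both KO libraries at zygotene (log2 fold change -5.72 ± 0.37, adjusted p = 0.00288). The other 3 had 7.95 to 37.8 in WT libraries and 0 to 0.657 in KO libraries. A locus over the Speer cluster, another multicopy testis family (chr5:11183070-11921083, plus strand), had 35, 16.3, 12.9 and 32.1 in WT and 0, 1.42, 0.796 and 1.61 in KO (log2 fold change -3.66 ± 0.48, adjusted p = 0.0154). Reads from near-identical copies can be split among them, and such spans merge several genes, so the place of this RNA is uncertain. Gm16279 (chr17:35910026-35910467, plus strand, beside Atat1) had 17.0, 27.0, 9.12 and 19.4 in WT and was listed at 0 in KO (adjusted p = 0.0075). The 4 Astx loci and Gm16279 were found in WT libraries alone, so they had to differ in these values.

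The KO comparisons of single stages called 37 loci at leptotene, 24 higher and 13 lower, and 15 at zygotene, 9 higher and 6 lower, where 0.511% and 0.227% of all features were called. At leptotene 31 of those on genes and the 1 off genes had been found in 1 genotype only at that stage, and at zygotene 12 on genes and the 1 off genes, so that these had to differ. The total on the strand turned the balance of directions, with 4 higher and 76 lower at leptotene and 1 higher and 29 lower at zygotene. With either library of WT leptotene, KO leptotene or WT zygotene left out, limma called no locus at leptotene, and it called 25 and 33 without KO zygotene 1 and 2. At zygotene it called 1 and 2 loci without WT leptotene 1 and 2 and none without any other library. All 13194 loci gave 341 calls over both stages, 173 higher and 168 lower (228 and 138 after quantile normalization, 81 and 692 with the total on the strand), and the number fell to 6 without WT zygotene 1 or 2, 41 and 22 without WT leptotene 1 and 2, 76 and 65 without KO leptotene 1 and 2, and 225 and 133 without KO zygotene 1 and 2.

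Stage changed few loci. In WT 1 locus rose from leptotene to zygotene and none fell, with 0.00871% of all features called, and in KO 2 rose and 1 fell, with 0.0232% called. The locus called in WT and all 3 called in KO had been found at 1 stage only in that genotype, so they had to differ in these values. The interaction of genotype and stage called 0 loci with limma, 1293 at an unadjusted p under 0.05, and 0.0116% of all features. The locus called in both genotypes covers 4930447C04Rik (Six6os1), a component of the synaptonemal complex (chr12:72880432-72917922, minus strand). It was listed at 0 in all 4 leptotene libraries and had 49.9, 59.7, 41.7 and 58.4 in zygotene (adjusted p = 0.0193 in WT and 0.0151 in KO). The total on its strand was already 19.5 to 38.4 in leptotene and 44.1 to 65.2 in zygotene, and it was not called in KO (log2 fold change 0.90 ± 0.35, adjusted p = 0.785). The other pair called in KO, Erlin1 and Tcf7, had totals with adjusted p of 1.0. Among loci that missed the threshold, 1 off genes was among those with the smallest p for stage in WT. It spans chr8:33642045-33642459 (plus strand), divergent from Ubxn8, and had 11.3 and 10.7 in WT zygotene and 0 in the other 6 libraries (3.59 ± 0.50, adjusted p = 0.287).

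Loci built like piRNA precursors were picked by structure alone. An intergenic or divergent position, a span of 10 kb or more and a start within 2 kb of an opposite-strand start left 47 loci, of which 43 were divergent from a gene by class and 7 had another locus as the nearest partner. Their median span was 17979 bases, and the median distance to the partner start was 164 bases. Small RNA was not measured, so nothing here shows that they make piRNAs. None of the 47 was called by limma in a KO comparison, with 14 at an unadjusted p under 0.05 over both stages, where 8215 of 34435 features were, and a smallest adjusted p of 0.063. Their median log2 fold change over both stages was -0.72, against -0.64 for all loci off genes. Of the 47, 15 were found in WT libraries alone and 1 in KO libraries alone, against 1044 and 146 of the 2305 loci off genes.

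The highest of them, chr6:43010882-43066937 (minus strand, 56.1 kb), stands just upstream of the called locus on chromosome 6 described above and overlaps RefSeq Gm34905. Its scaled TPM was 22.4 and 7.95 in WT and 3.08 and 0 in KO at leptotene, and 15.4 and 10.7 in WT and 4.50 and 0 in KO at zygotene. Every WT library lay above every KO library, but the difference missed the threshold (log2 fold change -2.70 ± 0.73, adjusted p = 0.0879). The total on its strand overlapped between genotypes, with 7.95 to 35.1 in WT and 2.64 to 12.6 in KO (-1.40 ± 0.57, adjusted p = 0.175). A divergent partner begins 260 bases away on the plus strand, chr6:43067197-43070477. A second pair lies near Rny3, with chr6:47667717-47757927 (minus strand, 90.2 kb) and chr6:47758303-47775860 (plus strand, 17.6 kb) starting 376 bases apart. The minus-strand locus had 3.78, 2.54, 6.21 and 4.60 in WT and 4.38, 8.38, 0 and 1.41 in KO. The plus-strand locus had 2.82, 4.95, 7.03 and 3.66 in WT and 1.94, 1.32, 1.85 and 0.975 in KO. The genotypes overlapped on the minus strand and did not on the plus strand, and neither difference passed (adjusted p = 0.444 and 0.163).

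**Figure D5:**
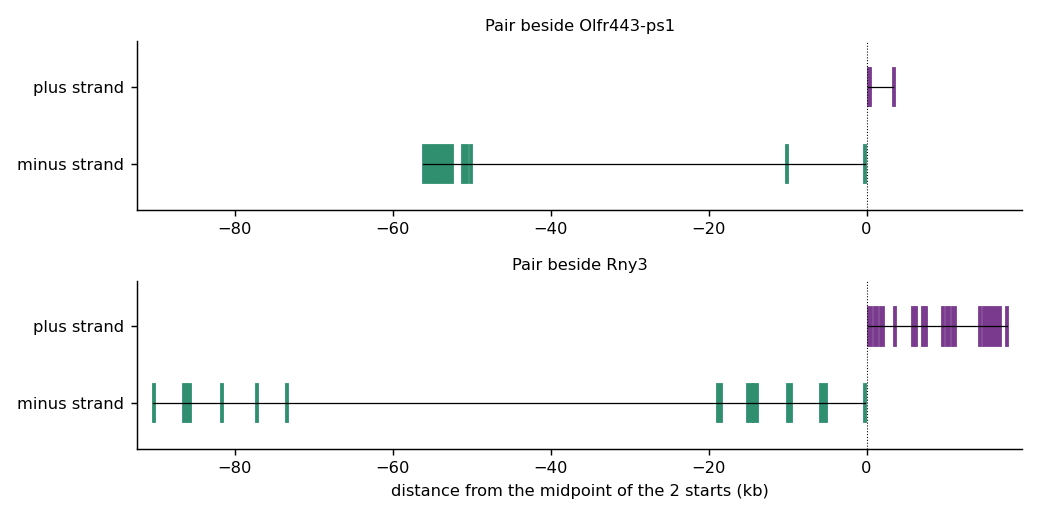
Exons (boxes) and spans (lines) of the pairs of divergent loci among the named piRNA-like loci, on the plus and minus strands, by distance in kb from the midpoint between their starts (horizontal axis). In both pairs the longer arm is on the minus strand, 56.1 kb and 90.2 kb.

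Other piRNA-like loci started beside a gene. The locus chr5:107309104-107331123 (minus strand) begins 36 bases from Brdt, which encodes a bromodomain protein of meiotic and postmeiotic germ cells, and had 12.6, 8.82, 6.59 and 4.34 in WT and 0, 12.2, 4.60 and 1.99 in KO. The locus chr7:126503497-126544653 (plus strand, RefSeq 4930456A14Rik) begins 60 bases from Atxn2l and had 12.3, 0, 10.4 and 1.69 in WT and 3.64, 9.47, 4.26 and 2.75 in KO. The locus chr4:49607729-49631964 (minus strand, RefSeq Gm45952) begins 42 bases from Rnf20, which encodes a histone H2B ubiquitin ligase, and had 12.1, 0, 11.2 and 2.81 in WT and 0, 1.15, 4.73 and 2.43 in KO. All of these ranges overlapped between genotypes, with adjusted p of 0.418, 0.905 and 0.578 over both stages. The loci beside Cnot4, Hnrnpa0, Pinx1 and Arc had adjusted p of 0.899, 0.995, 0.828 and 0.633.

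Of 22 genes of the piRNA pathway, whole-gene values over both stages called 2 higher and 2 lower, where 6.77% of all features were called. Piwil2 and Fkbp6, which act in prepachytene piRNA production, rose (log2 fold change 0.85 ± 0.16, adjusted p = 0.0229 and 1.03 ± 0.19, adjusted p = 0.0207). Piwil1, the PIWI protein of pachytene piRNAs, and Tdrd6, a tudor protein of the chromatoid body, fell (-1.14 ± 0.25, adjusted p = 0.0353 and -2.29 ± 0.27, adjusted p = 0.00457). Both are also markers of the pachytene list above. Mybl1 had 25.5, 10.5, 18.8 and 14.1 in WT and 10.2, 8.70, 8.95 and 10.4 in KO, and the difference missed the threshold (adjusted p = 0.221). Of 18 genes of splicing and nuclear RNA surveillance, 1 rose, the splicing factor Srsf3 (0.68 ± 0.17, adjusted p = 0.049), and none fell. Of 16 tested annotated long noncoding RNAs of known name, 3 fell, Meg3, Malat1 and Neat1, and none rose. Malat1, a nuclear RNA of most cell types, had 653, 1244, 1636 and 1581 in WT and 171, 325, 930 and 415 in KO (-1.63 ± 0.34, adjusted p = 0.0309), so its ranges overlapped across stages.

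Of the 10 highest loci off genes that were found in all 8 libraries, limma called none over both stages. The locus with the highest mean lies on an unplaced scaffold and had 47.2, 501, 779 and 58.6 in WT and 101, 107, 28.7 and 18.8 in KO (-1.86 ± 0.97, adjusted p = 0.321). The next, chr14:19415722-19419654 (plus strand, opposite exons of Gm21738), had 111, 447, 496 and 119 in WT and 111, 169, 61.0 and 43.0 in KO (-1.46 ± 0.58, adjusted p = 0.185). The locus chrX:169987271-169999365 (minus strand), opposite exons of Mid1, and the intergenic locus chr4:8392684-8398631 (plus strand) also had negative estimates (-1.55, adjusted p = 0.222 and -1.68, adjusted p = 0.172). The genotypes overlapped at all 4 of these. At the scaffold and chr14 loci, WT leptotene 2 and WT zygotene 1 were highest, as at the locus over Gm26870 described at the end. Whether reads at these loci fit many places was not tested. Gm52429 (chrX:101695842-101706396, plus strand) had 62.2 and 14.9 in WT and 106 and 41.1 in KO at leptotene, and 23.3 and 28.7 in WT and 46.0 and 88.8 in KO at zygotene (log2 fold change 1.18 ± 0.51, adjusted p = 0.225). The locus chr4:11174751-11191478 (minus strand), which starts 127 bases from Ccne2, the cyclin E2 gene, on the other strand, had 14.4 to 28.9 in WT and 3.72 to 54.9 in KO (adjusted p = 0.888). The locus of RefSeq Zfp33b (chr5:104571264-104592194, plus strand) had 8.10 to 21.5 in WT and 12.4 to 25.1 in KO (adjusted p = 0.525). On chromosome Y, the intergenic locus chrY:90717593-90730152 (plus strand) had 30.3, 9.21, 8.27 and 9.39 in WT and 55.8, 20.4, 26.5 and 37.2 in KO (1.34 ± 0.45, adjusted p = 0.131). Another locus of the same unplaced scaffold, on the plus strand, had a log2 fold change of 0.31 ± 0.4 (adjusted p = 0.722). A divergent locus that starts 19 bases from Vars, the valyl-tRNA synthetase gene (chr17:34996446-35000968, minus strand, RefSeq D17H6S56E-5), had 4.41, 5.91, 4.0 and 4.75 in WT and 13.8, 20.8, 8.86 and 7.87 in KO. Each KO library lay above each WT library, and the difference fell just short of the threshold (1.18 ± 0.25, adjusted p = 0.0511).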

How the data were processed

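RNA-seq of 8 libraries (2 in each of 4 groups) was used. The submitters' processing notes name HISAT2, DESeq2 and mm10 without settings. Per the file headers, the authors ran StringTie 2.1.2 once per library with the Ensembl GRCm38.89 annotation as a guide and gave no strand option. The deposited values are coverage, FPKM and TPM per transcript. The value of a locus was the summed TPM of its multi-exon transcripts without a reference gene, of any TPM, that overlapped its span. Other transcripts went to their reference gene or, where at least 50% of exonic length matched, to the GENCODE M21 gene. In the total on the strand, whole genes keep all their transcripts.

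Scaling used median-of-ratios factors from features above 0 in all libraries. Features with a TPM of 1 or more in 2 libraries were tested genome-wide on log2(scaled TPM + 1) with limma 3.58.1 in R 4.3.3, in 1 model of 4 group means with an intensity trend in eBayes, which leaves 4 residual degrees of freedom, and called at a Benjamini-Hochberg adjusted p under 0.05. The script was tested on simulated data. Same-numbered libraries deviated from their group means with correlations of 0.124 (WT) and 0.0883 (KO) between the stages of a genotype. Between genotypes the correlations were -0.0778 to -0.0554. The numbers were not taken as pairs in the main model. Erythroid sums of same-numbered libraries were near each other at both stages in WT (126 and 251, 2630 and 2792). In KO they were 1036 and 2129, and 8.2 and 7.72. Whether such libraries share a source was not tested, and if they do, fewer than 4 libraries per genotype are independent. Between libraries of 1 group, r over loci on the log2 scale was 0.337 to 0.428.

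Named are the 10 highest loci found in all 8 libraries, the 8 largest rises and falls of each KO comparison among called loci whose libraries do not overlap, up to 4 each way for stage and interaction, the 5 longest and the 10 highest piRNA-like loci. The rule was repeated over loci off genes, with 12 falls over both stages. The members and lists were chosen with earlier results of these data known. Apart from the RefSeq start windows, no genome sequence was used here, so base composition, repeats and reading frames of the loci were not computed.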

Additional observations from a re-analysis of the deposited data

How the results depend on the processing

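The counts of loci off genes in WT over KO kept their direction in all 6 other settings of TPM, libraries, introns and exons, with ratios of 2.07 to 3.10 and no overlap. When each library was left out, the ratios were between 2.24 and 2.40. The exact permutation p was then 0.0571 each time, over 0.05, and fewer libraries raise its lower limit. The count of loci off genes, the total on the strand and the covariate were chosen after seeing the data. The number of loci was 8723 at a TPM of 2, 8054 for 3 or more libraries, 582 for all 8, 6834 for 3 or more exons and 2305 without same-strand genes. With distances of 1 kb, 63 loci were downstream. The median log2 fold change of loci off genes over both stages ranged from -1.81 to -0.20 over 19 alternatives. When each library was left out, that of all loci ranged from -0.35 to 0 at leptotene, -0.28 to 0 at zygotene and -0.16 to -0.05 over both stages.

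Counts of called loci moved in most settings. At leptotene 37 became 63 with TPM as deposited, 63 with a TPM of at least 5, 80 with the total on the strand, 72 with a covariate for single-exon share, 7 with no filter, 275 with no intensity trend, 62 with quantile normalization, 58 with single-exon transcripts included, and 0 with the libraries of the comparison alone. At zygotene 15 became 27, 46, 30, 39, 7, 140 and 25 in the first 7 of these, and 0 with the libraries of the comparison alone. Over both stages 341 became 773 with the total on the strand, 126 with no filter, 579 with no trend, 583 with a pseudocount of 0.1 and 225 with one of 5. Off genes, 59 became 35 with a TPM of at least 5, 109 with the total, 35 with the covariate, 12 with no filter, 115 with no trend, 111 with a pseudocount of 0.1 and 26 with one of 5. For stage in WT, 1 became 0 with the total, the covariate, the comparison's libraries alone, a pseudocount of 0.1 and single-exon transcripts. For stage in KO, 3 became 38 with no trend, 5 and 1 with a pseudocount of 0.1 and 5, and 0 with the total, the covariate, the comparison's libraries alone and single-exon transcripts. The cause of these moves was not tested. Under the replicate block, which pairs libraries by number, the calls were 0 at leptotene, 0 at zygotene, 95 over both stages, 8 off genes and 0 for stage in either genotype. Leaving out each library gave 0 to 33 calls at leptotene, 0 to 2 at zygotene, 6 to 225 over both stages, 0 to 17 off genes, 0 for stage in WT and 0 to 1 in KO. The interaction had 0 in all of these. A group left with 1 library was assumed to vary like the others.

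Named loci on genes turned direction with the total on the strand. The log2 fold change of the total at leptotene was -0.61 for Nipbl, -0.55 for Samd4, -0.27 for Chd5, -0.58 for Cfap65 and -0.83 for Taf15. At zygotene it was -0.26 for Chd5, -0.38 for Tnxb, -0.45 for Taf15, 0.76 for Tcf7 and 0.66 for Gse1. Over both stages it was -0.60 for Nipbl, -0.55 for Samd4, -0.27 for Chd5, -0.07 for Trim11, -0.83 for Cfap65, 0.16 for Erlin1, -0.28 for Dnah17, -0.64 for Taf15, 0.71 for Tcf7, 0.64 for Gse1 and -1.47 for Pmfbp1. With single-exon transcripts included, Gse1 had 0.70 at zygotene and 0.05 over both stages. Depth per locus is unknown, so a value of 0 cannot be told from a level too low to assemble.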

Other observations

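The longest loci were merged spans over large genes. The longest, chrX:82814728-84944222 (plus strand, up to 38 exons), covers Dmd, which encodes dystrophin, a muscle protein with shorter forms in other tissues. Its scaled TPM was 24.4 and 35 in WT and 2.09 and 2.36 in KO at leptotene, and 18.6 and 11.8 in WT and 27.3 and 18.6 in KO at zygotene. KO was below WT at leptotene (log2 fold change -3.23, limma adjusted p = 0.0335) and not at zygotene (0.57, adjusted p = 0.576), and the total on its strand gave -3.33 ± 0.34 at leptotene (adjusted p = 0.0152). The interaction itself missed the threshold (3.80, adjusted p = 0.343). The other 4 of the 5 longest covered Naaladl2, Ctnna3, Prkg1 and Ctnna2, and none of them was called over both stages. Off genes, the longest was intergenic, chr14:109247836-109509450 (plus strand, 262 kb, 3 exons), with 1.63, 1.16, 0 and 4.54 in WT and 0, 0.785, 0 and 0 in KO.

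Some of the highest loci on genes lay in regions known for satellite repeats, where reads fit many places. The locus chr2:98662232-98667335 (plus strand, over Gm10801) had 430 and 1075 in WT and 579 and 565 in KO at leptotene, and 3889 and 423 in WT and 201 and 117 in KO at zygotene. The locus chr9:3000005-3038305 (minus strand, over Gm26870) had 106, 718, 769 and 69.9 in WT and 82.5, 207, 37.2 and 37.6 in KO. The libraries of WT zygotene lay far apart at both, and neither passed the test (adjusted p = 0.206 and 0.276 over both stages).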
